A study of Mus musculus with 4 samples.

Results

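Tight junctions seal the space between neighbouring epithelial cells, and the genes described here encode 9 of their scaffold, membrane and polarity proteins in CMT64 cells, a line of mouse lung adenocarcinoma cells. The 9 genes (Tjp1, Tjp3, Cgn, Ocln, Marveld2, Marveld3, F11r, Pard3 and Pard6b) were chosen by name from the 25704 genes listed for each library. RNA was taken 24 h after stimulation with TGF-β at 5 ng/ml, with TGF-β and TNF-α together (costimulation), with TNF-α at 10 ng/ml, or from control cells without cytokine. Each condition had 1 library, all from the same cell line in the same serum-containing medium, so a difference between 2 libraries could not be set against the spread between cultures.

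In the cytoplasm under the junction, the zonula occludens proteins ZO-1 (Tjp1) and ZO-3 (Tjp3) and cingulin (Cgn) tie the membrane proteins to actin. Occludin (Ocln), tricellulin (Marveld2) and MarvelD3 (Marveld3) are the tetraspan MARVEL proteins of the membrane, where tricellulin lies mainly at corners between cells, and JAM-A (F11r) is an immunoglobulin-like adhesion protein. Par3 (Pard3) and Par6β (Pard6b) belong to the complex with atypical protein kinase C that sets up apical and basal sides and guides where the junction forms. Loss of tight junctions is among the known features of the epithelial–mesenchymal transition (EMT), in which TGF-β signalling is a well-studied trigger, and repressors such as Snail and Zeb bind E-box sequences in promoters of epithelial genes.

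The libraries held between 75358896 and 81245906 mapped reads, and between 67481462 and 71898396 reads in exons. Introns took between 6.72% and 8.50% of gene reads, with the lowest share in control cells. The epithelial keratins Krt7, Krt8, Krt18 and Krt19 and the cadherin Cdh1 were abundant in all 4 libraries, whereas Epcam, which is also a usual epithelial marker, had only 7 to 16 reads. The 6 epithelial markers summed to 2519 RPKM (exon reads scaled to exon length and to mapped reads) with TGF-β and 2293 RPKM with costimulation, against 3356 RPKM with TNF-α and 3980 RPKM in control cells. Blood cell markers summed to between 1.73 and 1.88 RPKM, nearly all of it from Cd68 (167 to 179 reads), with Ptprc at 1 to 6 reads. Endothelial markers summed to between 0.0548 and 0.0925 RPKM. Of the 5 fibroblast markers, only Col1a1 exceeded 1 RPKM in any library, with 4583 reads with TGF-β and 5116 with costimulation, against 185 with TNF-α and 185 in control cells, while Dcn had at most 1 read. The part of these markers in the results below was not tested, and in such bulk RNA fewer cells that express a gene and less RNA per cell cannot be told apart.

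With TGF-β 4 of the 9 genes fell. None of the 9 was called for TNF-α, where only 0.422% of all genes tested were called. ZO-3 fell to 3.35 RPKM with TGF-β, against 27.4 RPKM in control cells, and tricellulin, occludin and cingulin fell by smaller amounts. JAM-A, ZO-1 and the polarity genes Pard3 and Pard6b were not called, and MarvelD3 was barely detected in any library. In an additive fit of edgeR's quasi-likelihood test with TGF-β and TNF-α as terms, 4 of the 9 genes had a Benjamini-Hochberg adjusted p under 0.05 with a lower level and 0 with a higher one, where 19.9% of the 13509 genes tested were called lower and 18.6% higher. All 9 genes passed the filter on low counts. The median log2 fold change of the 9 genes was -0.45, beside 0.0065 over all genes tested, but this median is the value of Marveld3, the gene with the fewest reads. As ratios between single libraries, the median log2 fold of the 9 genes was -0.11 for TGF-β over control (0.078 over all genes) and -0.62 for costimulation over TNF-α (0.057 over all genes). The value of -0.11 is again that of Marveld3, and that of -0.62 is the value of Cgn. With 1 library per condition, the only spread this test has is the departure of the 4 libraries from additivity, with 1 residual degree of freedom, and its p-values say nothing of the spread between cultures.

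**Figure D1:**
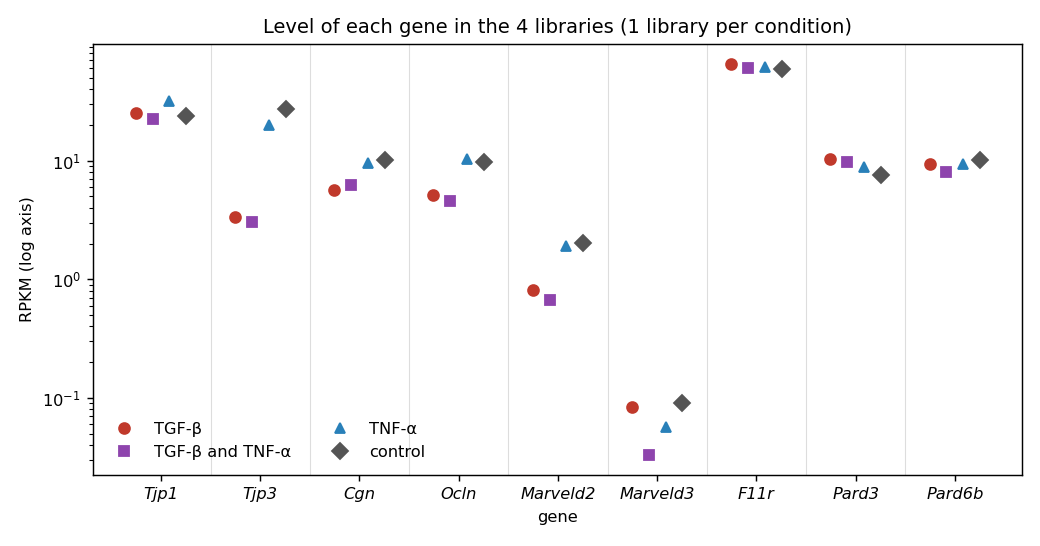
RPKM of each of the 9 genes on a log axis, with 1 point per library in the order TGF-β, TGF-β and TNF-α, TNF-α, control; no error is shown because each condition had 1 library. Tjp3, Cgn, Ocln and Marveld2, and by a small margin Pard6b, have both TGF-β libraries under both libraries without TGF-β. The share of all genes with such an order was not counted. F11r lies near 60 RPKM throughout, and Marveld3 stays under 0.1 RPKM.

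Promoter sequence was at hand for 8 of the 9 genes (not for Marveld3) as RefSeq windows of 250 bases before to 50 bases after each start on GRCm38.p6. Motifs were counted in the first window listed for each gene, since some genes have more than 1. An E-box, here CACCTG on either strand, occurred in the first window of 5 of the 8 genes, and of 20.0% of the 27025 genes with an entry. These 5 were Tjp3, Ocln and Marveld2, which fell with TGF-β, and F11r and Pard6b, which were not called. Cgn, which fell, had none, and neither did Tjp1 or Pard3. The only window of Tjp1 (chr7:65371195-65371494, minus strand) lies inside the gene. Its listed 5′ end, at 65527781, was not searched. The windows of the 3 genes that fell the most and, as a gene of nearly even level, F11r are shown 5′ to 3′ with the E-box in capitals (CAGGTG where it lies on the other strand). Tjp3 is at chr10:81291532-81291831 (minus strand), Ocln at chr13:100552669-100552968 (minus), Marveld2 at chr13:100616922-100617221 (minus) and F11r at chr1:171437311-171437610 (plus).
Tjp3: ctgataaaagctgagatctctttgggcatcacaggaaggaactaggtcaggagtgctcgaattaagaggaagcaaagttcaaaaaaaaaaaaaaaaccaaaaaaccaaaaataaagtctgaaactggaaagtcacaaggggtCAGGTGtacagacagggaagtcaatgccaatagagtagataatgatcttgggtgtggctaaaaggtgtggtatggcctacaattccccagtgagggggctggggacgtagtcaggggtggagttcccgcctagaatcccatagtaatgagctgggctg
Ocln: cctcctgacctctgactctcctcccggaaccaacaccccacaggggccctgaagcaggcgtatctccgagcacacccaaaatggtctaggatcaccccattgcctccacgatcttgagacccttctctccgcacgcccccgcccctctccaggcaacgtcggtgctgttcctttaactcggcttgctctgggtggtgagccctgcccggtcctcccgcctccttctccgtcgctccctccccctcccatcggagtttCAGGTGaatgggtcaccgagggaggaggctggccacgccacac
Marveld2: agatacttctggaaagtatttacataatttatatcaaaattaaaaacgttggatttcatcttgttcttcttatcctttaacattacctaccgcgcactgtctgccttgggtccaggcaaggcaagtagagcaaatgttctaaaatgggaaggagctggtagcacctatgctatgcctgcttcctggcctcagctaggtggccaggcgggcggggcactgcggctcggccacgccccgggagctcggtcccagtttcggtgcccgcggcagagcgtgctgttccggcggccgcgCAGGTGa
F11r: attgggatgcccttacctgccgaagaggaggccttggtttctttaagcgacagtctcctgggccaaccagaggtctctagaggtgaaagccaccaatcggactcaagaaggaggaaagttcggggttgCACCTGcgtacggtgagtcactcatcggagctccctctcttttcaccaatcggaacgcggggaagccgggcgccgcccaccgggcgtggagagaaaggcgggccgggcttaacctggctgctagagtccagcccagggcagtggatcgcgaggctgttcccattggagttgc
Counting the first base after the 250 as 1, the E-box began at -108 in Tjp3, at 8 in Ocln, at 44 in Marveld2 and at -122 in F11r. Pard6b had E-boxes at -141 and -86. A second window, at another start, is listed for Tjp3, Ocln, Marveld2 and Pard3. Those of Ocln and Marveld2 overlap the first and hold the same E-box again, beside a further one at -68 in Ocln. The second windows of Tjp3 (-17) and Pard3 (-220, -203 and -166) hold E-boxes of their own. In first windows, the Smad motif CAGACA occurred in 3 of the 8 genes (Tjp3, Cgn and Marveld2, 21.0% of all genes), the Grainyhead core AACCGG in Cgn only (6.78%), the AP-1 motif TGANTCA in F11r only (7.93%) and the TEAD core GGAATG in none of them (14.6%), each searched on both strands. AACCGG also occurred in the second windows of Tjp3 and Ocln. These matches describe letters in these windows and are not evidence of binding.

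Among the scaffold genes, ZO-3 had the largest difference. Tjp3 (ENSMUSG00000034917, chromosome 10, 81273207 to 81291581, minus strand, mm10) had 900 reads with TGF-β and 766 with costimulation, against 5111 with TNF-α and 6834 in control cells. Both TGF-β libraries lay far under both libraries without TGF-β, and the control library was the highest. In RPKM these were 3.35 with TGF-β and 3.04 with costimulation, against 19.9 with TNF-α and 27.4 in control cells. The log2 fold change for TGF-β was -2.94 (SE 0.16, edgeR adjusted p = 6.3e-70). Tjp3 was 0.122 times its control level with TGF-β (95% counting interval 0.114 to 0.131), and its level with costimulation was 0.153 times that with TNF-α (0.142 to 0.165). Of the 13509 genes tested, 1.99% had a lower fold of TGF-β over control. Tjp3 shares 40 exon bases with Apba3 on the other strand, and whether the counting used strand is not given in the sources used here.

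Cingulin, which binds ZO proteins and actomyosin, fell less. Cgn (ENSMUSG00000068876, chromosome 3, 94760069 to 94786492, minus strand) had 2773 reads with TGF-β and 2847 with costimulation, against 4467 with TNF-α and 4569 in control cells. In RPKM these were 5.67 with TGF-β and 6.22 with costimulation, against 9.56 with TNF-α and 10.1 in control cells, with a gap between the libraries with and without TGF-β. The log2 fold change for TGF-β was -0.79 (SE 0.15, edgeR adjusted p = 1.3e-06), and the folds were 0.563 over control (0.537 to 0.590) and 0.651 over TNF-α (0.621 to 0.682).

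ZO-1, the most studied of these scaffolds, was not called in exon reads summed over the gene, which cannot show a change in the use of single exons. Tjp1 (ENSMUSG00000030516, chromosome 7, 65296165 to 65527781, minus strand) had 15175 reads with TGF-β and 12420 with costimulation, against 17985 with TNF-α and 13210 in control cells, or 25.3 and 22.2 RPKM against 31.4 and 23.8 RPKM. The highest library was that with TNF-α alone, and the libraries with and without TGF-β overlapped. Its log2 fold change for TGF-β was -0.27 (SE 0.14, edgeR adjusted p = 0.104). With TGF-β it was 1.07 times the control level (1.04 to 1.09), whereas with costimulation it was 0.705 times the level with TNF-α (0.689 to 0.722). The call of Tjp1 differed under a pair of alternatives. It was called lower without the control library (log2 fold change -0.47). That fit had no TNF-α term, and the TNF-α library, the highest for Tjp1, was the only one without TGF-β. Tjp1 was also called lower in a fit with offsets for base composition and length (-0.47, edgeR adjusted p = 1.4e-06). Its fold over control became 0.783 when centred within bins of GC content and length.

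Of the MARVEL genes of the membrane, tricellulin and occludin fell. Tricellulin had the lower level of these. Marveld2 (ENSMUSG00000021636, chromosome 13, 100595957 to 100616971, minus strand) had 225 reads with TGF-β and 171 with costimulation, against 501 with TNF-α and 516 in control cells, or 0.819 and 0.665 RPKM against 1.91 and 2.02 RPKM. Each library with TGF-β held fewer reads than each library without it. The log2 fold change for TGF-β was -1.48 (SE 0.21, edgeR adjusted p = 3.0e-11), with folds of 0.404 over control (0.344 to 0.474) and 0.349 over TNF-α (0.291 to 0.416).

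Occludin, the first membrane protein described at tight junctions, fell at a level above that of tricellulin. Ocln (ENSMUSG00000021638, chromosome 13, 100496507 to 100552718, minus strand) had 1754 reads with TGF-β and 1468 with costimulation, against 3394 with TNF-α and 3101 in control cells, or 5.11 and 4.58 RPKM against 10.4 and 9.75 RPKM. Again no library with TGF-β reached a library without it. The log2 fold change for TGF-β was -1.12 (SE 0.15, edgeR adjusted p = 2.2e-12), with folds of 0.525 over control (0.495 to 0.556) and 0.442 over TNF-α (0.415 to 0.470). Ocln and Marveld2 are neighbours on chromosome 13, on the same strand and 43238 bases apart.

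MarvelD3 was too low to compare. Marveld3 (ENSMUSG00000001672, chromosome 8, 109947914 to 109962203, minus strand) had 22 reads with TGF-β and 8 with costimulation, against 14 with TNF-α and 22 in control cells. TGF-β over control gave a fold of 0.928 with an interval of 0.490 to 1.76, which holds both 1 and the fold of occludin (0.525). The log2 fold change for TGF-β was -0.45 (SE 0.60, edgeR adjusted p = 0.605). Marveld1, a related MARVEL protein from outside the 9 genes, fell (log2 fold change -0.94, SE 0.15, edgeR adjusted p = 4.8e-09), with 4025 reads with TGF-β and 3605 with costimulation, against 6421 with TNF-α and 7220 in control cells.

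JAM-A was the most abundant of the 9 genes in every library. F11r (ENSMUSG00000038235, chromosome 1, 171437535 to 171464603, plus strand) had 13414 reads with TGF-β and 11423 with costimulation, against 11903 with TNF-α and 11254 in control cells, or 65.6 and 59.7 RPKM against 60.9 and 59.3 RPKM. Its level was nearly even over the 4 libraries, with the library with TGF-β alone slightly above the rest. The log2 fold change for TGF-β was -0.010 (SE 0.14, edgeR adjusted p = 0.967), and the folds were 1.11 over control (1.08 to 1.13) and 0.980 over TNF-α (0.955 to 1.01). F11r made up 52.3% of the summed RPKM of the 9 genes with TGF-β and 52.3% with costimulation, against 40.0% with TNF-α and 39.5% in control cells. The whole sum was 125.5 RPKM with TGF-β and 114.1 with costimulation, against 152.4 with TNF-α and 150.0 in control cells, and without Tjp3 it was 122.1 and 111.0 RPKM against 132.5 and 122.6 RPKM.

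The polarity genes were not called. Pard3 (ENSMUSG00000025812, chromosome 8, 127063893 to 127612286, plus strand) had 7496 reads with TGF-β and 6626 with costimulation, against 6224 with TNF-α and 5156 in control cells. Pard3 was higher in both libraries with TGF-β than in both without it, and the share of all genes with that order was not counted. Its log2 fold change was 0.21 (SE 0.15, edgeR adjusted p = 0.286), with folds of 1.35 over control (1.30 to 1.40) and 1.09 over TNF-α (1.05 to 1.13). Pard6b (ENSMUSG00000044641, chromosome 2, 168081004 to 168101203, plus strand) had 2585 reads with TGF-β and 2077 with costimulation, against 2481 with TNF-α and 2577 in control cells. In RPKM these were 9.36 with TGF-β and 8.04 with costimulation, against 9.41 with TNF-α and 10.1 in control cells. Pard6b was thus lowest with costimulation, and its level with TGF-β lay just under that with TNF-α. Its log2 fold change was -0.23 (SE 0.15, edgeR adjusted p = 0.227), with folds of 0.930 over control (0.881 to 0.983) and 0.855 over TNF-α (0.806 to 0.907). Without the TNF-α library, Pard3 was called higher (log2 fold change 0.30) and Pard6b lower (-0.30). That fit had no TNF-α term, and control was the only library without TGF-β.

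Fewer of the 9 genes passed limits on fold and level. Among the genes over 1 RPKM in the comparator, 8 of the 9 in each case, 2 were under a fold of 0.5 for TGF-β over control (6.89% of 10321 genes), namely Tjp3 and Marveld2, and 3 for costimulation over TNF-α (6.08% of 10366 genes), with Ocln as the added one. Only Tjp3 was under a fold of 0.25 (2.52% of genes for TGF-β over control, 2.26% for costimulation over TNF-α). None of the 9 genes was above a fold of 2 in either comparison, where 5.93% of genes passed in the first and 4.8% in the second.

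**Figure D2:**
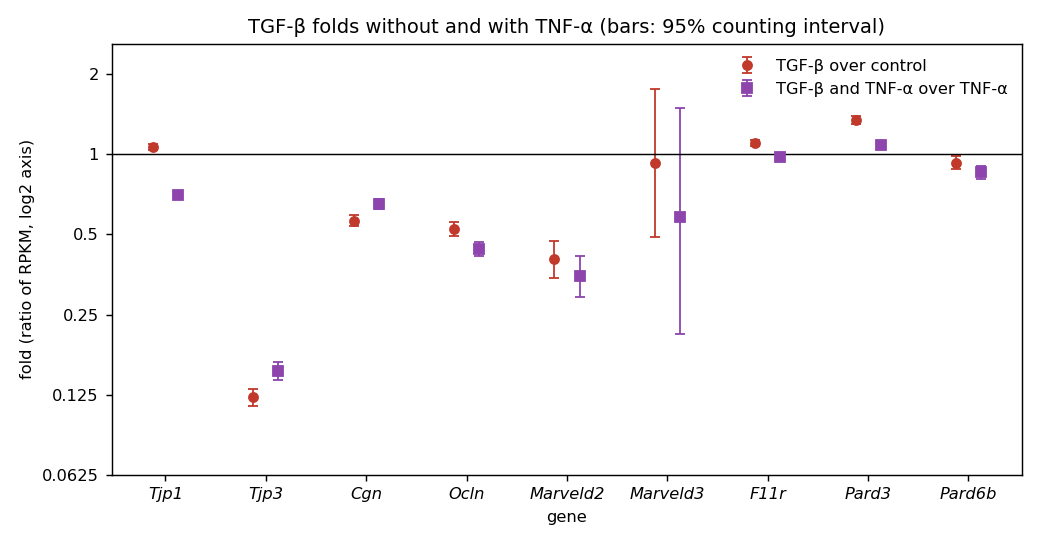
Fold of each gene with TGF-β on a log2 axis, as TGF-β over control (circles) and as costimulation over TNF-α (squares), with bars for the 95% counting interval, which covers counting error only. Tjp3, Cgn, Ocln and Marveld2 lie under 1 in both comparisons, whereas Tjp1 lies at 1.07 in one and at 0.705 in the other.

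For TNF-α, edgeR's test called 0 of the 9 genes, against 0.422% of all genes tested (57 of 13509). The lowest adjusted p of the 9 was 0.9997, only Tjp3 had an unadjusted p under 0.05, and DESeq2 called 0 as well. With TNF-α, Tjp3 was 0.726 times its control level (0.700 to 0.753), Tjp1 was 1.32 times (1.29 to 1.35) and Pard3 1.17 times (1.13 to 1.22). Added to TGF-β, TNF-α gave a fold under 1 in 8 of the 9 genes and in 51.4% of all genes tested. The 8 include Tjp1 (0.875, 0.855 to 0.896), F11r (0.911, 0.888 to 0.934) and Pard6b (0.859, 0.811 to 0.911), and only Cgn was above 1 (1.10, 1.04 to 1.16). These folds share libraries with one another.

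The folds over the control library moved with GC content across genes. Over 13503 genes of the same libraries, the rank correlation (Spearman) between GC content, taken from the longest transcript, and the log2 fold was -0.53 for TNF-α over control and -0.25 for TGF-β over control, beside 0.024 for costimulation over TNF-α and 0.072 for costimulation over TGF-β. Tjp3 has 60.7% GC and Tjp1 46.8%. Centred within bins of GC content and length, the fold of TNF-α over control was 0.880 for Tjp3 and 1.10 for Tjp1, both nearer to 1. For the 4 genes that fell, TGF-β over control then gave 0.140 for Tjp3, 0.374 for Marveld2, 0.427 for Ocln and 0.569 for Cgn.

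**Figure D3:**
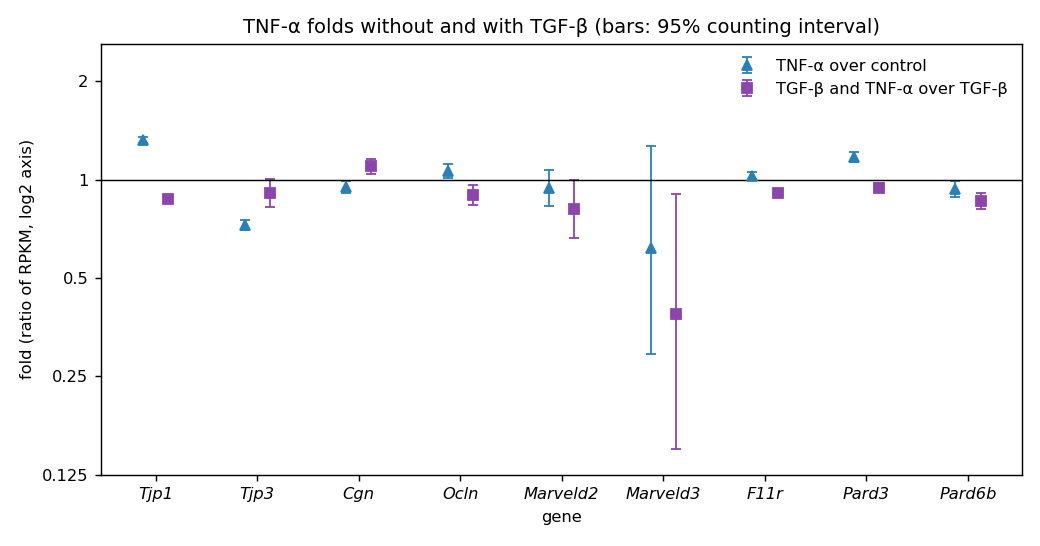
Fold of each gene with TNF-α on a log2 axis, as TNF-α over control (triangles) and as costimulation over TGF-β (squares), with bars for the 95% counting interval. Tjp1 is at 1.32 over control and 0.875 over TGF-β, and Marveld3, with 8 to 22 reads, has the widest bars.

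The difference of the log2 folds of TGF-β with and without TNF-α was largest among the well-detected genes in Tjp1, at -0.60 (counting interval -0.64 to -0.55). It was -0.31 in Pard3 and 0.33 in Tjp3, and the counting interval left out 0 for 7 of the 8 genes with at least 100 reads in each library, Marveld2 being the other. Such intervals narrow with depth, and they left out 0 for 69.2% of all 10652 genes with that many reads. Over those genes the median difference was -0.022, the 10th percentile -0.43 and the 90th 0.34, and 3.88% were at or under the value of Tjp1. Centred within bins of GC content and length, the difference was -0.25 in Tjp1, -0.27 in Pard3 and -0.0087 in Tjp3. With no replicate library, the differences were not tested.

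Reads in introns, a separate readout in the same libraries, can follow unspliced RNA. For Tjp3 they were 0.0871 times the control level with TGF-β (0.0677 to 0.111), from 74 reads with TGF-β and 788 in control cells, beside 0.122 in its exons. The intron fold of Cgn was 0.729 (0.606 to 0.876). For Ocln it was 0.810 (0.627 to 1.05) and for Marveld2 1.31 (0.733 to 2.37, from 31 reads with TGF-β and 22 in control cells), and both intervals include 1. Over 9163 genes the median fold of TGF-β over control was 1.36 in introns and 1.05 in exons. The intron intervals of Tjp3, Cgn and Ocln lay wholly under 1.36, whereas that of Marveld2 held it. For costimulation over TNF-α, where that median was 1.06 in introns, the intron folds were 0.121 for Tjp3, 0.518 for Cgn, 0.581 for Ocln (0.460 to 0.730) and 0.494 for Marveld2 (0.248 to 0.943). For Pard6b the intron folds were 1.68 over control (1.34 to 2.11) and 1.27 over TNF-α (1.01 to 1.61), and for Pard3 1.58 over control (1.38 to 1.83) and 1.53 over TNF-α (1.34 to 1.76). Marveld3 had intron folds of 0.394 over control (0.210 to 0.711) and 0.494 over TNF-α (0.248 to 0.943), from 15 to 40 reads. Tjp1 had 1.12 over control (0.995 to 1.26) and 0.594 over TNF-α (0.524 to 0.671), and F11r 1.08 (0.977 to 1.18) and 1.04 (0.941 to 1.14) in the same comparisons.

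**Figure D4:**
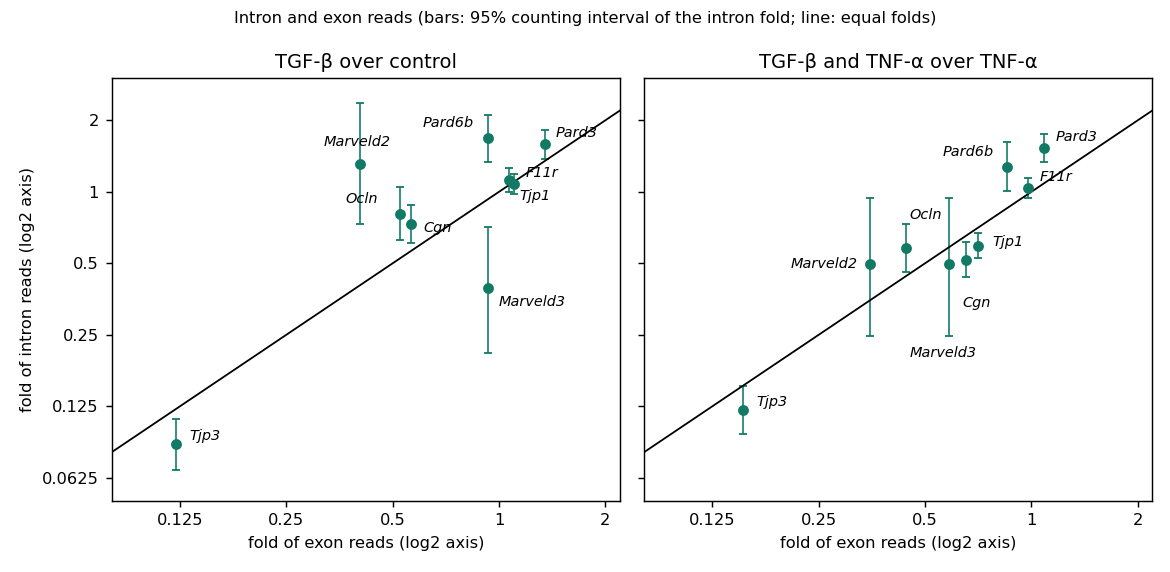
Fold of intron reads against fold of exon reads for each gene, both on log2 axes, for TGF-β over control (left) and costimulation over TNF-α (right), with bars for the 95% counting interval of the intron fold and a line at equal folds. Tjp3 is low on both axes in both panels, whereas Ocln and Marveld2 lie above the line at left and nearer to it at right. The median over 9163 genes also moved: the intron minus the exon log2 fold was 0.36 at left and 0.033 at right. These differences were 0.63 and 0.39 for Ocln, and 1.69 and 0.50 for Marveld2.

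The other tight junction and polarity genes held members called in both directions, in numbers to be read against the 18.6% of all genes called higher and the 19.9% called lower. Of 26 other tight junction genes listed, 25 were tested, and 5 rose and 3 fell with TGF-β (median log2 fold change 0.046 over the list). The largest rises were in Esam, an adhesion protein best known from endothelium, with at most 29 reads (2.31), the scaffold Magi2 (1.47), Myzap (0.96) and the guanine nucleotide exchange factor Arhgef18 (0.77). Those that fell were Marveld1 (-0.94), the tricellular junction protein Lsr (-0.89) and the scaffold Magi3 (-0.71). Of 26 other polarity genes, 22 were tested, and 5 rose and 3 fell (median 0.072). Dlg5 (1.16), Dlg4 (1.13), Pard6g (1.07) and Mpp5 (0.94), which encodes the Crumbs partner Pals1, rose. Llgl2 (-1.72), the Crumbs gene Crb3 (-0.81) and Patj (-0.36) fell, the last with an edgeR adjusted p of 0.043. Pard6g, a paralogue of Pard6b, had 3.99 RPKM with TGF-β and 3.99 with costimulation, against 1.92 with TNF-α and 1.71 in control cells. Of 23 claudins 9 were tested, and 3 rose and 1 fell (median 0.53). No gene of the 3 lists was called for TNF-α, where only 0.422% of all genes tested were called.

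Genes with the pattern most like that of the 3 genes that fell the most were found by the Euclidean distance of the 4 centred log2 RPKM values among 10662 genes. For Tjp3 they were Smagp (distance 0.104), Rab27a (0.109) and Rbbp8nl (0.133). For Marveld2 they were Catsperd (0.066), Nr1h4 (0.081) and Nedd4l (0.107), and for Ocln they were Efemp1 (0.049), Ssfa2 (0.065) and Myo6 (0.072). Among the 9 genes, F11r and Pard6b were the nearest pair (0.25), followed by F11r and Pard3 (0.26), and Ocln was nearer to Marveld2 (0.39) than Tjp3 was to any of the other 8 (1.49 to Marveld2 at the least).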

How the data were processed

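RNA was sequenced from 4 cultures of CMT64 cells (control, TGF-β, TNF-α, both), with 1 library each and 67481462 to 71898396 exon reads. The authors mapped reads to mm10 with CLC Genomics Workbench (version not given in the sources used here) and deposited 1 table per library. The read counts in the deposited tables are whole reads per gene, in exons, introns and exon-exon junctions, and total reads count multi-hit reads too. For RPKM the authors scaled total exon reads to exon length and to mapped reads. The TPM values deposited by the authors were not used. Coordinates and lengths are as deposited, and the coordinates of the 9 genes equal those of GENCODE on the same build.

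Total exon counts of all genes were fitted with edgeR (4.0.16) in R (4.3.3), with TMM scaling, filterByExpr, robust quasi-likelihood dispersions and both cytokines as additive terms. Adjusted p-values follow Benjamini-Hochberg over all genes tested, with a threshold of 0.05. The standard error is the log2 fold change over the square root of the F statistic. Folds between 2 libraries are ratios of RPKM with a 95% Clopper-Pearson interval of the conditional binomial of the reads, which covers counting error only. The fit was also run on counts simulated with its own dispersions and with a TGF-β effect only. Such counts say nothing of the spread between cultures. Alternatives were DESeq2 (1.42.0), DESeq2 size factors, limma (3.58.1) on log2 RPKM with pseudocounts of 0.1 and 1, unique reads, no filter, a single term, GC and length offsets, and each library left out. Genes past a fold were taken over 1 RPKM in the comparator (lower) or over 2 RPKM in the numerator (higher). All 9 genes are named, and from each other list up to 4 called genes with the largest change in each direction, apart from the claudins, which are counted only. Marveld1 is also given, as a relative. The genes and lists were chosen with earlier results of these data known. Folds, intervals and motif searches were run in Python (3.11.15) with scipy (1.17.1), pandas (2.3.3) and numpy (2.4.6), and figures with matplotlib (3.10.9).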

Additional observations from a re-analysis of the deposited data

Results flagged for a closer look

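Some folds pointed in opposite directions in the 2 settings of the other cytokine, with counting intervals on opposite sides of 1. Each rests on single libraries, and the differences were not tested. The share of all genes with such a pair of folds was not counted. Counting intervals narrow with depth. That of the difference left out 0 for 69.2% of the 10652 genes with at least 100 reads in each library. Tjp1 had a TGF-β fold of 0.705 with TNF-α and 1.07 without it, and correspondingly a TNF-α fold of 0.875 with TGF-β and 1.32 without it (difference -0.60 on the log2 scale in both views). The TNF-α fold was 1.10 with TGF-β and 0.949 without it for Cgn (difference 0.21). It was 0.895 with TGF-β and 1.06 without it for Ocln (difference -0.25), 0.911 with TGF-β and 1.03 without it for F11r (difference -0.17), and 0.945 with TGF-β and 1.17 without it for Pard3 (difference -0.31). Within bins of GC content and length the differences were -0.25 for Tjp1, 0.13 for Cgn, -0.035 for Ocln, -0.17 for F11r and -0.27 for Pard3. In those bins Tjp1 had TGF-β folds of 0.660 with TNF-α and 0.783 without it, on the same side of 1. The TNF-α folds in those bins were also on the same side of 1 for Ocln (0.897 with TGF-β, 0.919 without it) and Cgn (1.11 and 1.02). They stayed on opposite sides for Tjp1 (0.925 and 1.10), F11r (0.911 and 1.02) and Pard3 (0.963 and 1.16). Without TNF-α, the TGF-β fold of Tjp1 was 1.005 with TMM sizes and 1.011 with DESeq2 size factors. For F11r the TNF-α fold over control, 1.03 with a lower limit of 1.0008, was 1.016 with TMM sizes and 1.006 with DESeq2 size factors.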

How the results depend on the processing

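Tjp3, Cgn, Ocln and Marveld2 were called lower with TGF-β under every alternative run. Of 108 values of the TGF-β log2 fold change of the 9 genes under alternatives, 98 kept their direction and side of the threshold, 4 passed the threshold and 6 had the other sign. The 4 were Tjp1 with GC and length offsets (-0.47) and without the control library (-0.47), and Pard3 (0.30) and Pard6b (-0.30) without the TNF-α library. The 6 were F11r with the offsets (0.026), with limma and pseudocounts of 0.1 (0.058) and 1 (0.057) and without the costimulation library (0.062), and Marveld3 without the control (0.0019) or the costimulation library (0.13). With each library left out in turn, the value of F11r lay between -0.080 and 0.062 and that of Marveld3 between -1.22 and 0.13. When a library was left out, the calls of the 9 genes changed only for Tjp1, Pard3 and Pard6b, as given above. These changes are to be read against the numbers of all genes called, which also moved. Over all genes, 5191 were called for TGF-β, and 3111 to 7475 with a library left out (3111 when the TGF-β library and 3112 when the costimulation library was omitted). For TNF-α 57 were called, against 0 with a single term and 0 with any library left out, 19 with DESeq2, and 96 and 17 with limma at pseudocounts of 0.1 and 1. A TGF-β fold under 0.5 over control was found in 2 genes, in 1 with a pseudocount of 1 RPKM, and in 3 with TMM sizes, DESeq2 size factors or GC and length bins, where Ocln was 0.495, 0.498 and 0.427. The causes were not tested, except that leaving out a library also left out the other cytokine's term. Of 270 single folds under other scalings, 7 lay on the other side of 1, none of them under 0.5 or over 2 before, among them TGF-β over control for Tjp1 (0.783). The difference of folds centred within GC and length bins was added after seeing the data, and its interval left out 0 for 5 genes in place of 7. The share of all genes with such an interval after centring was not counted. No paired analysis was possible because each condition had 1 library and the labels give no replicate numbers. Depth limits Marveld3 (8 to 22 reads) and the intron reads of Marveld2 (15 to 31).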
